A study of Homo sapiens with 6 samples.

Results

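The genes described here encode factors that build ribosomes in the nucleolus and the proteins of the nucleolus itself. They were chosen by name from the known pathway, as a list of 59 genes, with earlier results of these data known. A gene was kept where a probe set of the array carried its symbol and no other, and the brightest such probe set stood for it. This left 56 of the 59 genes among 18417 genes with such a probe set. NOP56, a core protein of C/D box particles, shares its probe set with the small RNA SNORD56, and DDX18 and GNL3 had no named probe set, so these 3 genes were not analysed here. All 56 genes were brighter than the median probe set, which held for 11307 genes in all, called the brighter genes below.

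RNA came from H460 cells, an established line of a human large cell lung cancer, cultured for 16 h in medium with 0.5% serum. Each of the 6 arrays stands for 1 condition: normoxia with the solvent DMSO at 0.1%, normoxia with 100 nmol/L BAY 87-2243, hypoxia (1% oxygen) with DMSO, hypoxia with 100 nmol/L BAY 87-2243, and 2 hypoxic arrays with 1 or 10 nmol/L. BAY 87-2243, called the compound below, is an inhibitor of hypoxia-induced gene activation that acts on mitochondrial complex I. The labels of the last 2 arrays conflict, because the array titled 10 nM has 1 nM in its source name and the array titled 1 nM has 10 nM there. They are therefore named by title and no order of dose was read from them. Values are intensities on a linear scale as deposited, and a difference is the log2 ratio of 2 arrays, so that 1 is a 2-fold change. With 1 array per condition differences could not be checked against replicates, and p-values were not computed. Members past 2-fold are counted, beside the share of all genes past 2-fold.

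Between hypoxia and normoxia, both with 100 nmol/L of the compound, the ratio stayed below 1.28-fold for 95% of the brighter genes. This spread serves as a rough yardstick for single genes. It comes from 1 pair of arrays that differ in oxygen, so it does not measure the noise between replicates. Of the 6 comparisons this pair was the narrowest, with a standard deviation of 0.18 over the brighter genes. That was 0.34 for 100 nmol/L in normoxia, 0.39 for 100 nmol/L in hypoxia and 0.55 for hypoxia with DMSO. A value inside or past the yardstick is therefore described and not tested. The hypoxia markers ADM, ANKRD37, HILPDA and NDRG1 had log2 differences of 2.63 to 3.79 between hypoxia and normoxia with DMSO. The keratins KRT8, KRT18 and KRT19 lay between 7807 and 11774 on all 6 arrays, whereas the epithelial markers EPCAM and CDH1 stayed below the array medians. Of the 11 measured markers of blood, endothelial and fibroblast cells, 7 stayed below the median on all 6 arrays. CD68 lay between 3157 and 4763, with a log2 difference of 0.59 between hypoxia and normoxia with DMSO, and COL1A1, COL3A1 and COL1A2 lay between 126 and 381. In RNA of a whole culture, fewer cells with a transcript and less transcript per cell cannot be told apart.

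A ribosome is assembled around RNA that RNA polymerase I transcribes in the nucleolus. Small nucleolar ribonucleoproteins (snoRNPs) guide the chemical modification of this RNA, the C/D box class through methylation and the H/ACA box class through pseudouridylation. A large early complex, the small subunit processome, folds and cuts the precursor of the small subunit, which late factors escort to the cytoplasm, while a separate set of factors builds the large subunit. The pathway consumes much of the energy of a growing cell, and MYC, which binds the E-box sequence CACGTG, is a well known activator of its genes.

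Stretches of promoters are shown first, because the members carried one sequence feature, which took no part in their choice, more often than other genes. Of the 59 genes 47 had an entry in the RefSeq promoter table (GRCh38.p14), with 53 windows in all, each from 250 bases before the annotated start to 50 bases after it. The E-box CACGTG, which reads the same on both strands, was found in 20 of the 53 windows, or 37.7%. It was found in 7.26% of all 35116 windows of the table and in 9.52% of the 13187 windows of brighter genes. In all 20 windows an E-box began within 50 bases of the start on either side. This again made 37.7% of the 53 member windows, against 2.82% of all windows and 3.93% of those of brighter genes. Over the whole window the share was 23.7% of 97 windows for other ribosome biogenesis factors, 11.0% of 82 windows for mitochondrial ribosomal proteins and 5.97% of 67 windows for cytosolic ribosomal proteins. Within 50 bases of the start these shares were 15.5%, 1.22% and 2.99%. By response, an E-box was in 7 of 20 windows of members that were 2-fold apart in hypoxia against normoxia or with the compound in hypoxia and in 12 of 30 windows of the measured members that were not, a difference that was not tested. The 20 windows belong to 19 genes. MAK16 and RRS1, with log2 differences of -2.33 and -2.14 in hypoxia against normoxia, had no window. NOP58, RRP12 and RRP1B, also 2-fold lower there, had none either.

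The printed stretches run from 150 bases before to 30 bases after the annotated start, 5′ to 3′ on the strand of the gene, with any E-box in capitals. PNO1, NOL6, RRP9 and WDR43 are shown as members with an E-box and a decrease in hypoxia, FBL as a member with an E-box and no such decrease, NOP16 and UTP15 as members with large differences and no E-box in the window, and IMP3 as the member that went the other way. Their positions are chr2:68157738-68157917 on the plus strand for PNO1, chr9:33473895-33474074 on the minus strand for NOL6, chr3:51941875-51942054 on the minus strand for RRP9 and chr2:28894517-28894696 on the plus strand for WDR43. FBL lies at chr19:39846350-39846529 (minus), NOP16 at chr5:176388569-176388748 (minus), UTP15 at chr5:73565593-73565772 (plus) and IMP3 at chr15:75640195-75640374 (minus).
PNO1: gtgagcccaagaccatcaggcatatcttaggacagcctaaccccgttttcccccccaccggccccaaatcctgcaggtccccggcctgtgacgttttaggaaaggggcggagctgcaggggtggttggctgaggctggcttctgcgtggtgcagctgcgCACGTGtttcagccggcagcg
NOL6: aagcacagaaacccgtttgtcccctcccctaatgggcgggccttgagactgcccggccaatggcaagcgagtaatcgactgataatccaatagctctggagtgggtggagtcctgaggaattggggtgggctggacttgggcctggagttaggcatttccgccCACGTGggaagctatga
RRP9: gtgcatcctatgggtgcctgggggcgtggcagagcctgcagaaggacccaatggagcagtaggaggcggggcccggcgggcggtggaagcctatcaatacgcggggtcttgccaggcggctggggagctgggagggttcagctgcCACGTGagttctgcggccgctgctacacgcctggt
WDR43: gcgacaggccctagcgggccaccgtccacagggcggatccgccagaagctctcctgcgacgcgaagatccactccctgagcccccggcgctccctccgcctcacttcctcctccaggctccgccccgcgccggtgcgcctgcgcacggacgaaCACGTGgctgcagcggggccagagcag
FBL: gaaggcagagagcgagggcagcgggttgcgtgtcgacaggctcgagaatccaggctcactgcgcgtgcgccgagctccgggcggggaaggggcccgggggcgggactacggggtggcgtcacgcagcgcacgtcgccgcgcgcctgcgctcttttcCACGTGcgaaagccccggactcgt
NOP16: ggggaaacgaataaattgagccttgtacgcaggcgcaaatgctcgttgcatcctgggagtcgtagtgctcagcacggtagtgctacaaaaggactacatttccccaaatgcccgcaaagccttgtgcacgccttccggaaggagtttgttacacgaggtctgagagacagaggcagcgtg
UTP15: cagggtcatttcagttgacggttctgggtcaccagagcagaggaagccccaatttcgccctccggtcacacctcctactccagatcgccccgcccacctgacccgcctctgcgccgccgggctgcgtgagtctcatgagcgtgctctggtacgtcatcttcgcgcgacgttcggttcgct
IMP3: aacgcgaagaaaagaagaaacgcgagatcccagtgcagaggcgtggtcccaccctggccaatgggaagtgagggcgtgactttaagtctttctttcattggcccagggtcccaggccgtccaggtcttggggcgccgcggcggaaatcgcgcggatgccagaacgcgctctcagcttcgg

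With the first transcribed base counted as 1, the E-box began at base 10 in PNO1, 14 in NOL6, 4 in WDR43 and 7 in FBL, and at base -5 in RRP9. Beyond these, an E-box began at base 29 in LTV1 and BYSL, at 36 in NOP2, at 32 in GAR1 and at -10 in UTP20. The remaining ones near the start began at -31 in DDX21, -16 in UTP4, -15 in NAT10 and -11 in NOP10. After the start they began at 2 in PWP2, 4 in GNL2, 7 in GNL3, 14 in PES1, and 16 in IMP4 and NOP14. The core of the site that HIF binds, ACGTG or GCGTG on either strand, was present in 48 of the 53 windows (90.6%). It was present in 48.4% of all windows and in 60.9% of those of brighter genes. Since an E-box itself holds ACGTG, matches inside an E-box were left out in a further count. It gave 77.4% of the member windows, 45.4% of all windows and 57.5% of those of brighter genes. The same count gave 79.4% for other ribosome biogenesis factors, 65.7% for cytosolic and 63.4% for mitochondrial ribosomal proteins, so it did not set the members apart from other factors. The median GC content was 63.0% in member windows, 58.67% in all windows and 65.0% in those of brighter genes. These matches describe letters in a window and no binding was measured.

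In hypoxia with DMSO most members were lower than in normoxia with DMSO. Of the 56 members 23 were at least 2-fold lower, against 3.67% of all genes and 5.06% of the brighter genes. None was 2-fold higher, against 1.67% of all genes, although IMP3 passed 2-fold after quantile normalization. Less than a 2-fold difference was found for 33. A difference below 0 was found for 52 members, against 42.6% of all genes and 54.5% of the brighter genes. The median log2 difference of the members was -0.90, which is a 1.87-fold decrease, whereas the median over all genes was 0.08 and that over the brighter genes -0.05. Differences ran from -2.33 for MAK16 to 0.92 for IMP3.

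In hypoxia most members were higher with the compound at 100 nmol/L than with DMSO. By at least 2-fold 13 of the 56 were higher, against 0.766% of all genes and 0.999% of the brighter genes. By 1.5-fold 34 were higher, against 6.86% of the brighter genes. Only IMP3 was 2-fold lower, against 1.01% of all genes, and less than a 2-fold difference was found for 42. The median was 0.64, a 1.56-fold increase, against -0.04 over all genes and 0.06 over the brighter genes. Above 0 were 51 of the 56, against 45.6% of all genes and 58.1% of the brighter genes. Just past the threshold lay POLR1B (1.01), DKC1 (1.02) and WDR12 (1.02), and just short of it RIOK1 (0.99), UTP3 (0.99), NOL11 (0.98), UTP20 (0.95) and RRP9 (0.95). Both comparisons use the hypoxic DMSO array, so their values are set side by side and not taken as independent of each other. When the array titled 10 nM took the place of that array, the count of members higher by 2-fold with 100 nmol/L was 2 and not 13. The array titled 10 nM also had the compound, and 54 of the 56 members were above hypoxia with DMSO on it. A lower count is thus built into this replacement, which does not check the DMSO array. No share of all genes is given for that pair.

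In normoxia 100 nmol/L of the compound was followed by smaller differences in the members than in hypoxia. None of the 56 was 2-fold away from DMSO, against 1.31% of all genes, and none was 1.5-fold away, against 7.45% of the brighter genes. The median was -0.04, and 0.02 when each array was centred on its median, so it has no settled direction. Values ran from -0.43 (POLR1B) to 0.49 (GNL2). The effect of the compound in hypoxia minus that in normoxia had a median of 0.68 on the log2 scale. It was above 0 for 54 of the 56, against 45.6% of all genes and 59.2% of the brighter genes. It was at least 1 for 17 members, against 3.11% of all genes and 4.02% of the brighter genes.

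When hypoxia and normoxia were compared with 100 nmol/L of the compound in both, 48 of the 56 were still below 0. That held for 48.4% of all genes and 42.7% of the brighter genes. The median was -0.21 over the members and 0.01 over all genes. None of the members was 2-fold apart, against 0.212% of all genes. Against normoxia with DMSO, hypoxia with 100 nmol/L had a median of -0.24 over the members. None was 2-fold apart there, against 1.69% of all genes. Above the normoxic DMSO array were 11 members, against 51.3% of all genes and 49.1% of the brighter genes. GNL2 (0.44) and NOP53 (0.42) were furthest above it. The largest remaining decreases were those of WDR43 and POLR1B (both -0.83), RRS1 (-0.82) and LTV1 (-0.76).

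**Figure D1:**
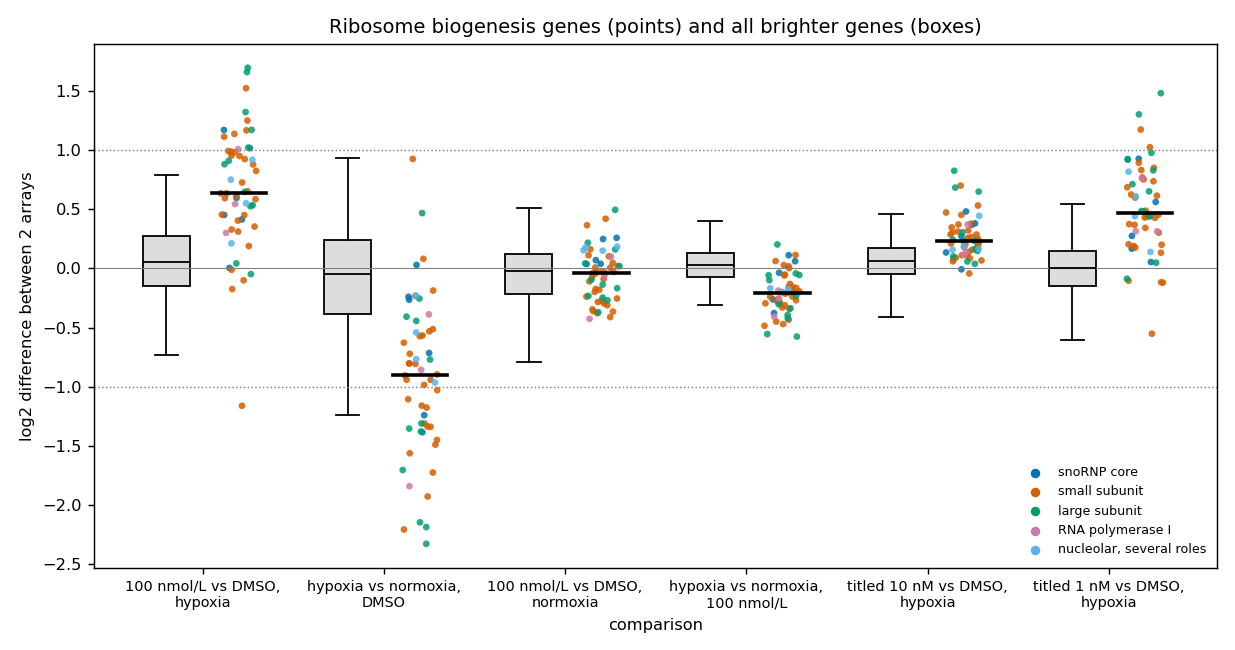
Log2 difference between 2 arrays (y axis) in each of 6 comparisons (x axis), with 1 point for each of the 56 genes coloured by group, a black bar at their median, and a box for the 11307 brighter genes (quartiles, whiskers at the central 95%). Members lay below 0 for hypoxia against normoxia with DMSO (median -0.90), above 0 for 100 nmol/L against DMSO in hypoxia (0.64) and around 0 for the compound in normoxia (-0.04).

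Over the 4 hypoxic arrays, 42 of the 56 members were lowest with DMSO, then on the array titled 10 nM (source name 1 nM), then on the array titled 1 nM (source name 10 nM), and highest with 100 nmol/L. That order was found in 10.7% of all genes and 16.1% of the brighter genes. It follows the source names of these arrays and not their titles. IMP3 alone ran in the opposite order. The hypoxic DMSO array was the lowest of all 6 arrays for 49 members, against 22.0% of all genes and 30.5% of the brighter genes. On the array titled 10 nM none of the members was 2-fold away from hypoxia with DMSO, against 0.266% of all genes, and the median was 0.23. On the array titled 1 nM 4 members were at least 2-fold higher, against 0.223% of all genes and 0.248% of the brighter genes, with a median of 0.47. These 4 were NOP16 (1.48), MAK16 (1.30), NOL6 (1.17) and UTP15 (1.02).

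Counts at other thresholds were read against the same background. At 1.5-fold 38 members were lower in hypoxia against normoxia with DMSO, against 11.0% of all genes and 15.5% of the brighter genes, and only IMP3 was higher, against 8.9% and 7.6%. By the same threshold 4.97% of all genes were higher with 100 nmol/L in hypoxia, where 34 members were. A 1.5-fold difference on the array titled 10 nM was found for 4 members, NOP16 (0.82), UTP15 (0.70), MAK16 (0.68) and BRIX1 (0.65). In either direction 4.26% of all genes and 1.58% of the brighter genes were 1.5-fold apart there. All 4 members were higher, as were 195 of the 18417 genes and 103 of the 11307 brighter genes. This difference in share was not tested. On the array titled 1 nM 24 members were 1.5-fold higher, against 2.05% of all genes and 2.02% of the brighter genes. At 3-fold 8 members were lower in hypoxia, against 0.619% of all genes. With 100 nmol/L in hypoxia NOP16 and MAK16 were 3-fold higher, against 0.103% of all genes, and none was 3-fold lower, against 0.201%. None was 3-fold higher on the array titled 1 nM, against 0.0217% of all genes.

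**Figure D2:**
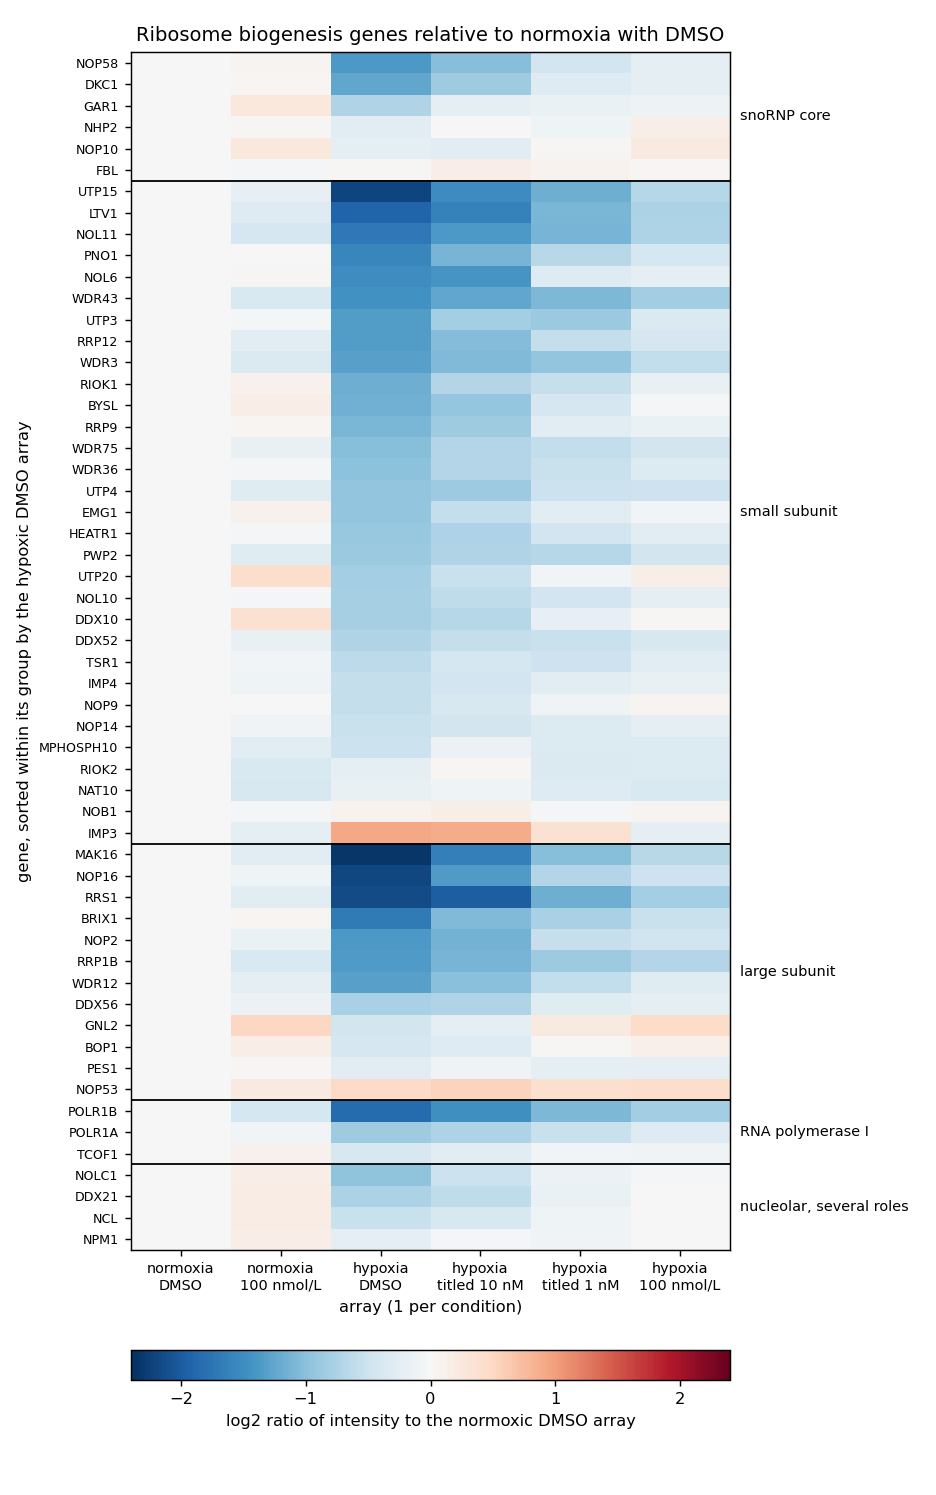
Log2 ratio of each of the 56 genes (rows, sorted within groups) to the normoxic DMSO array on each of the 6 arrays (columns), with blue for lower and red for higher. The hypoxic DMSO column is the bluest for most rows, with MAK16 (-2.33) at the low end and IMP3 (0.92) at the high end.

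The snoRNP core comprised 6 measured genes. Their median was -0.49 in hypoxia against normoxia with DMSO and 0.52 for 100 nmol/L against DMSO in hypoxia. In the C/D box particle NOP58, a scaffold protein, and FBL, the methyltransferase fibrillarin, differed from each other. The intensity of NOP58 was 3079, 3232, 1180, 1523, 2238 and 2654, given here and below in the order normoxia with DMSO, normoxia with 100 nmol/L, hypoxia with DMSO, hypoxia titled 10 nM, the array titled 1 nM and hypoxia with 100 nmol/L. FBL was at 6211, 6091, 6339, 6960, 6580 and 6355 on the same arrays. NOP58 was thus 2.61-fold lower in hypoxia with DMSO and 2.25-fold higher with the compound, whereas FBL kept its level within the yardstick of 1.28-fold on every array. In the H/ACA box particle the pseudouridine synthase DKC1 (dyskerin) was at 2620, 2691, 1109, 1444, 2108 and 2243, and GAR1, a small glycine and arginine rich protein, at 383, 458, 233, 325, 344 and 352. DKC1 was 2-fold lower in the hypoxic DMSO culture (-1.24) and 2-fold higher with the compound (1.02), the latter not after quantile normalization or with 32 added before log2, and GAR1 moved the same way within 2-fold (-0.71 and 0.60). The small partners NHP2 and NOP10 were at 2170, 2227, 1807, 2184, 2028 and 2406 and at 3628, 4310, 3072, 3056, 3716 and 4202. Both were within 1.28-fold of normoxia in hypoxia with DMSO. NHP2 is one of 3 members with more than 1 probe set, and its other probe set had a log2 difference of 0.25 in place of 0.41 for 100 nmol/L in hypoxia. For BOP1 the other probe set gave 0.44 in place of 0.53. For NPM1 the other 2 bright ones gave 0.25 and 0.26 in place of 0.21, and the last, at 58.1 to 74.4, was below the array medians. Signal from near-identical copies of such genes cannot be told apart from that of the gene here.

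Of the factors of the small subunit 31 were measured, and 13 were lower by 2-fold or more in the hypoxic DMSO culture, with a median of -0.94. With 100 nmol/L in hypoxia 5 were at least 2-fold higher and 1 lower, with a median of 0.63. The 23 factors of the early processome had medians of -0.90 and 0.63, and the 8 late factors medians of -1.17 and 0.96. UTP15, a scaffold protein of the subcomplex that binds the nascent RNA, had the widest range of the group. It was at 1297, 1130, 281, 457, 572 and 808. NOL11 and NOL6, further processome proteins, were at 868, 653, 263, 334, 402 and 519 and at 873, 885, 311, 329, 702 and 739. In NOL6 the array titled 10 nM lay next to the hypoxic DMSO array, whereas the array titled 1 nM lay next to that with 100 nmol/L.

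The WD repeat proteins of the processome behaved alike in sign and differed in size. WDR43 was at 2884, 2240, 1057, 1216, 1370 and 1617. WDR3 was at 898, 707, 362, 431, 468 and 599. WDR75 was at 4983, 4418, 2443, 3052, 3292 and 3666. These 3 genes were lower by 2-fold or more in the hypoxic DMSO culture (-1.45, -1.31 and -1.03), WDR75 not so after quantile normalization, and within 2-fold with the compound in hypoxia (0.61, 0.73 and 0.59). WDR36 was close behind (-0.98 and 0.65), and UTP4, HEATR1 and PWP2, further proteins of the same complex, had differences of -0.94, -0.90 and -0.90 in hypoxia and of 0.45, 0.63 and 0.45 with the compound. RRP9, a specific protein of the U3 particle that pairs with the precursor RNA, was at 1499, 1549, 697, 834, 1256 and 1346, and UTP3 at 264, 257, 104, 151, 142 and 207. Both were 2-fold lower in the hypoxic DMSO culture (-1.10 and -1.34), RRP9 not so after quantile normalization. UTP20, DDX10 (an RNA helicase) and EMG1 (an RNA methyltransferase) stayed within 2-fold in hypoxia (-0.81, -0.80 and -0.94). With 100 nmol/L in hypoxia UTP20 and DDX10 reached or passed their normoxic DMSO level (log2 differences of 0.15 and 0.02 to it). Both genes were also higher with the compound in normoxia (0.42 and 0.36). Against normoxia with 100 nmol/L they were lower in hypoxia with 100 nmol/L (-0.27 and -0.34).

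Among the late factors the nuclear export and maturation factor LTV1 was at 904, 728, 238, 295, 423 and 534. PNO1, which sits at the site of the last cut of the small subunit RNA, was at 1586, 1594, 537, 735, 997 and 1181. BYSL (bystin) was at 1197, 1340, 536, 629, 903 and 1159. All 3 genes were lower by 2-fold or more in the hypoxic DMSO culture and higher by 2-fold or more with the compound in hypoxia (1.17, 1.14 and 1.11). RRP12, a factor of nuclear export, was at 1483, 1244, 588, 726, 1002 and 1115, and the kinase RIOK1 at 1256, 1356, 556, 771, 857 and 1105. They were 2-fold lower in the hypoxic DMSO culture (-1.34 and -1.18) and just short of 2-fold higher with the compound (0.92 and 0.99). The related kinase RIOK2 and the nuclease NOB1, which makes the last cut, had differences of -0.23 and 0.08 in hypoxia and of -0.10 and -0.01 with the compound, inside the yardstick.

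Other members of the small subunit group had smaller differences or the opposite sign. NAT10, which acetylates the RNA of the small subunit, was at 1630, 1254, 1432, 1520, 1318 and 1270, with both arrays at 100 nmol/L below both DMSO arrays. MPHOSPH10 and TSR1 were lowest on the hypoxic DMSO array, within 2-fold of normoxia (-0.51 and -0.63), and inside the yardstick with the compound (0.19 and 0.35). IMP3, a partner of MPHOSPH10 in the U3 particle, was at 344, 291, 652, 633, 445 and 292. It was the only member that was highest on the hypoxic DMSO array and lowest in both cultures with 100 nmol/L. Its partner IMP4 was within 2-fold in the direction of most members (-0.57 and 0.40). The processome factors NOP14, NOP9, NOL10 and DDX52 were also within 2-fold, with differences of -0.53, -0.57, -0.80 and -0.72 in hypoxia and of 0.31, 0.63, 0.59 and 0.33 with the compound, those of NOP14 and DDX52 being inside the yardstick.

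**Figure D3:**
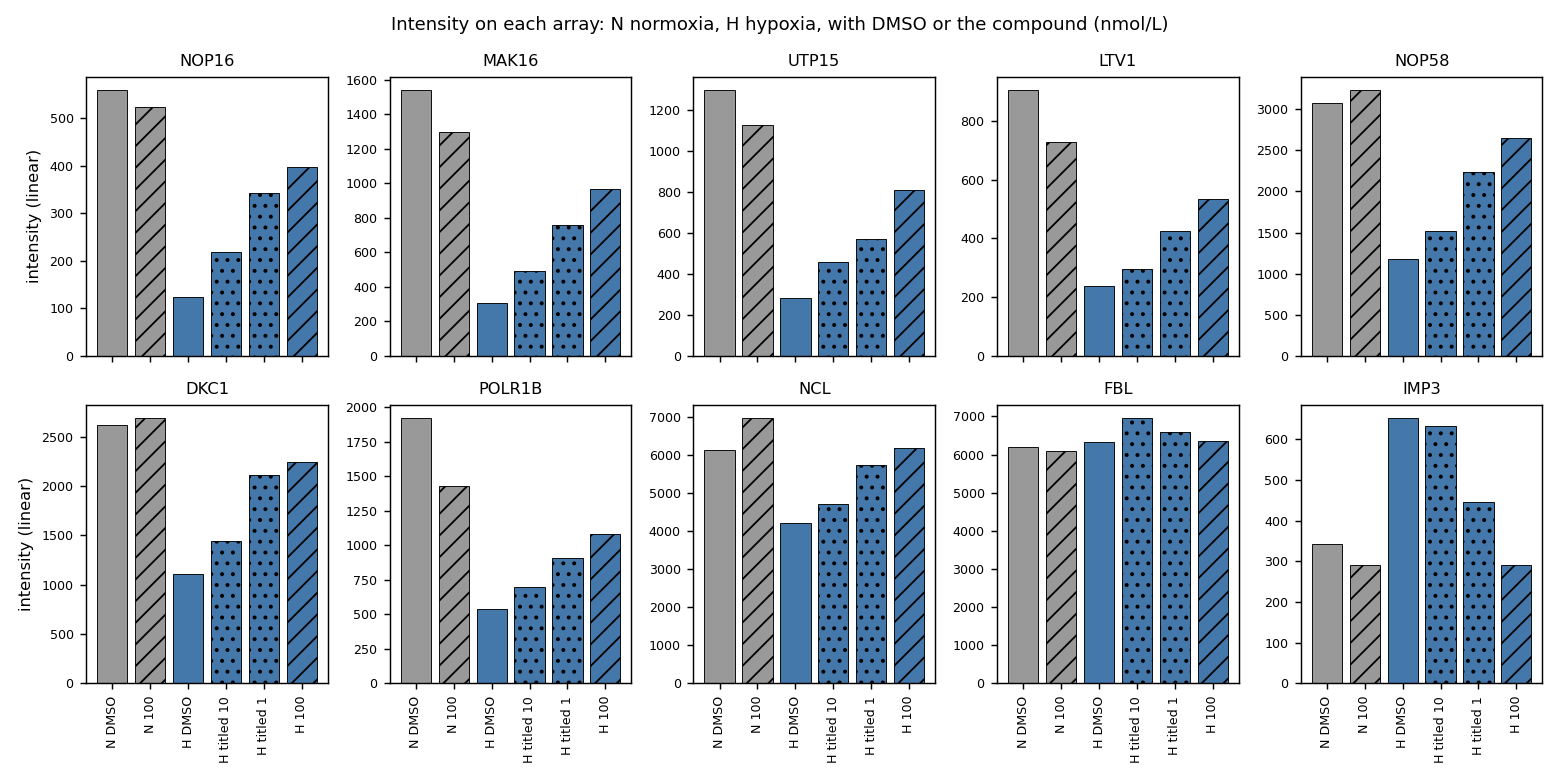
Intensity on a linear scale (y axis, from 0) of 10 ribosome biogenesis genes on the 6 arrays (x axis; N normoxia in grey, H hypoxia in blue, hatched bars with 100 nmol/L, dotted bars at the lower doses named by title), with 1 array per bar. NOP16 stood at 558 on the normoxic and 123 on the hypoxic DMSO array and at 398 on the hypoxic array with the compound, FBL stayed between 6091 and 6960, and IMP3 was highest in hypoxia with DMSO at 652.

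Of the 12 measured factors of the large subunit, 7 were lower by 2-fold or more in the hypoxic DMSO culture (median -1.33) and 5 higher by 2-fold or more with 100 nmol/L in hypoxia (median 0.89). MAK16 was at 1540, 1298, 307, 493, 757 and 969. NOP16 was at 558, 522, 123, 218, 343 and 398. RRS1, which brings the 5S particle into the large subunit, was at 1070, 888, 242, 271, 476 and 605. These 3 genes were more than 4-fold lower in hypoxia with DMSO, and with the compound MAK16 and NOP16 were 3.16-fold and 3.24-fold higher. BRIX1 was at 1955, 2013, 600, 941, 1135 and 1351. WDR12, the partner of PES1 and BOP1 in one complex, was at 1859, 1583, 750, 927, 1229 and 1522. NOP2, an RNA methyltransferase, was at 1605, 1430, 618, 731, 1097 and 1159, and RRP1B at 1264, 978, 495, 581, 691 and 774. BRIX1 and WDR12 were past 2-fold in both comparisons, WDR12 with the compound not so after quantile normalization or with 32 added before log2, whereas NOP2 and RRP1B were so only in hypoxia against normoxia (-1.38 and -1.35). PES1 and BOP1, by contrast with WDR12, had differences of -0.25 and -0.41 in hypoxia and of 0.04 and 0.53 with the compound. GNL2, a GTPase of the nucleolus, was at 1578, 2224, 1160, 1362, 1822 and 2136, and was higher with the compound in normoxia as well (0.49). NOP53 was at 2669, 3101, 3689, 3843, 3473 and 3568, the lowest value being that of normoxia with DMSO. The helicase DDX56 was within 2-fold in the direction of most members (-0.77 and 0.53).

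Of the RNA polymerase I genes POLR1B, its second largest subunit, was at 1921, 1430, 537, 694, 910 and 1079. It was 3.58-fold lower in hypoxia with DMSO and 2.01-fold higher with the compound, which became less than 2-fold after quantile normalization or with 32 added before log2, and was below its normoxic DMSO level on every other array. POLR1A, the largest subunit, was at 1338, 1283, 739, 800, 918 and 1078, and TCOF1 (treacle), a nucleolar protein that promotes transcription by this polymerase, at 1282, 1373, 980, 1078, 1218 and 1207. Both were within 2-fold in hypoxia (-0.86 and -0.39) and with the compound (0.54 and 0.30).

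The 4 abundant nucleolar proteins with several roles were within 2-fold in every comparison. NOLC1, a chaperone of snoRNPs, was at 4998, 5556, 2563, 3486, 4517 and 4842, and the helicase DDX21 at 4293, 4852, 2524, 2828, 3851 and 4244. NCL (nucleolin) was at 6134, 6968, 4217, 4706, 5726 and 6175, and NPM1 (nucleophosmin) at 10007, 11105, 8537, 9719, 9401 and 9886. For all 4 genes the hypoxic DMSO array was the lowest, and hypoxia with 100 nmol/L was within 0.05 on the log2 scale of normoxia with DMSO. In normoxia the compound gave 0.15 to 0.18 for these genes.

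The size of the differences varied with the level of the probe set. The dimmest 19 members had medians of -1.31 in hypoxia against normoxia and 0.82 with the compound in hypoxia, the middle 19 of -0.94 and 0.88, and the brightest 18 of -0.74 and 0.49. Over the 10118 genes that lay in the brightness range of the members the medians were -0.07 and 0.07. The part of brightness in the size was not tested.

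Lists of further factors of the same pathway had medians of the same sign as the members. Of 27 other small subunit factors 6 were lower by 2-fold or more in the hypoxic DMSO culture (median -0.76), and 1 was at least 2-fold higher with 100 nmol/L in hypoxia (median 0.56). That gene was UTP11 (1.03). Of 37 other large subunit factors 12 were lower (median -0.79) and 3 higher with the compound (median 0.51), namely URB2 (1.33), MRTO4 (1.06) and PAK1IP1 (1.04). URB2 had an intensity of 911 on the normoxic and 170 on the hypoxic DMSO array, and 427 on the hypoxic array with the compound. Of 14 other RNA polymerase I factors 4 were lower (median -0.76) and TAF1A was higher with the compound (1.37, median 0.41). Of 9 other factors of snoRNP assembly 4 were lower (median -0.97) and none was 2-fold higher with the compound (median 0.50).

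Ribosomal protein genes had smaller median differences than the members in hypoxia against normoxia and with the compound in hypoxia. The cytosolic ones also differed in direction, with 36 of 67 above 0 in hypoxia against normoxia, where 4 of the 56 members were. Over 67 genes named as cytosolic ribosomal proteins the medians were 0.01 in hypoxia against normoxia and 0.07 with the compound in hypoxia, and 2 were at least 2-fold lower in hypoxia. These were RPL22L1 and RPL7L1, which encode relatives of ribosomal proteins (-1.32 and -1.15). Over 73 mitochondrial ribosomal proteins the medians were -0.30 and 0.32, with 4 at least 2-fold lower in hypoxia, among them MRPS23 (-1.57), MRPL15 (-1.34) and MRPS18C (-1.17), and MRPS23 at least 2-fold higher with the compound (1.12). The difference between these lists and the members was not tested, since each comparison rests on 2 arrays.

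**Figure D4:**
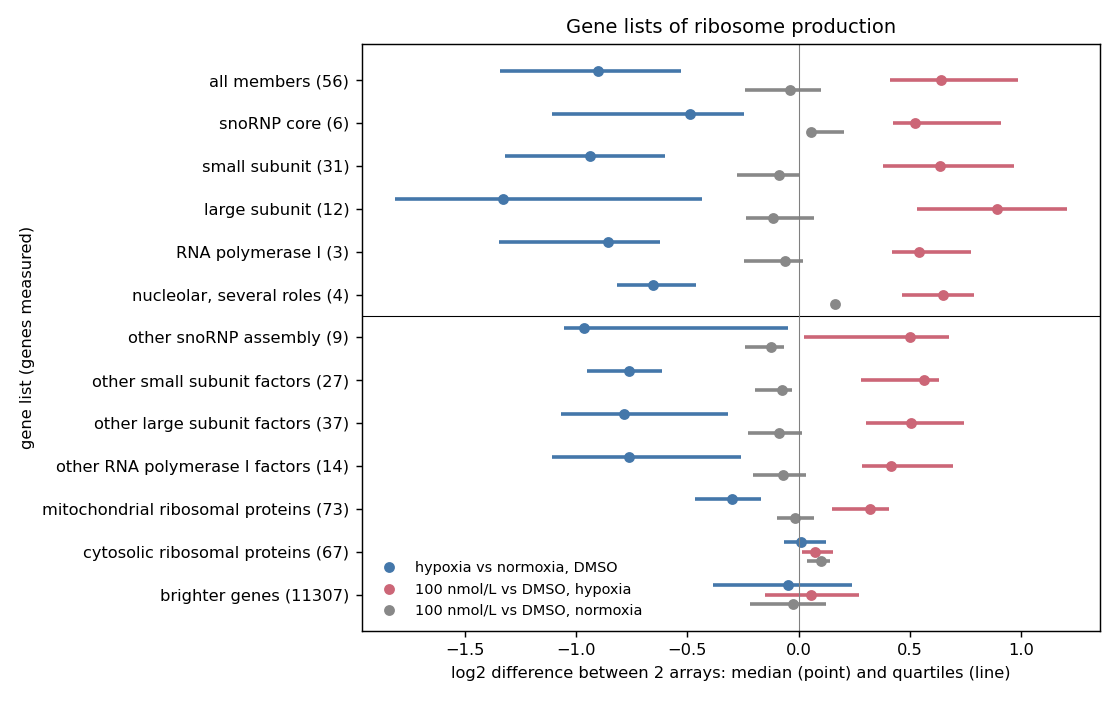
Median (point) and quartiles (line) of the log2 difference (x axis) over each gene list (y axis, number of genes measured in brackets) in 3 comparisons, marked by colour. The large subunit factors had medians of -1.33 and 0.89, other factors of ribosome biogenesis medians from -0.97 to -0.76 in hypoxia and from 0.41 to 0.56 with the compound in hypoxia, and the cytosolic ribosomal proteins lay near 0 in all 3.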

How the data were processed

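Per the labels, RNA from 6 H460 cultures was hybridised to 1 one-colour oligonucleotide array each. The authors deposited 1 table of intensity values, 1 per probe set and array, on a linear scale from 0.625 to 26036.1. The submitters' processing notes name RMA, whereas the methods of the study name MAS 5.0 for the images and Expressionist for further statistics, so the summary step is not settled. The genome build and annotation were not given in the sources used here. Of 33297 probe sets 19460 carried 1 gene symbol in the platform annotation, 1754 carried several and 12083 were not listed. The brightest single-symbol probe set stood for each of 18417 genes. Log2 ratios of arrays were taken with no further normalization, value added or filter. The array medians were 128 to 140, and precision is limited by how many arrays there are.

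The members and the lists were chosen with earlier results of these data known. Genes named in the text are the members at least 2-fold apart, the extremes of each group, the snoRNP core and the remaining members by their values, and outside the members at most the 3 genes with the largest difference of each list. URB2 was also given by level, chosen after its values were seen. Quantile normalization, centring on the median, 32 added before log2, the mean of all probe sets, thresholds of 1.5-fold and 3-fold and replaced arrays were tried. Scripts were tested on simulated data and ran in Python 3.11.15, pandas 2.3.3 with numpy 2.4.6 and scipy 1.17.1, the figures in matplotlib 3.10.9.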

Additional observations from a re-analysis of the deposited data

Results flagged for a closer look

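In 4 members 100 nmol/L of the compound went with higher intensity in hypoxia and lower intensity in normoxia, each by more than the 0.36 on the log2 scale that held 95% of the brighter genes between the arrays with 100 nmol/L. NOL11, a processome factor, had log2 differences of 0.98 in hypoxia and -0.41 in normoxia. POLR1B, a subunit of RNA polymerase I, had 1.01 and -0.43. RRP1B had 0.65 and -0.37, and WDR43 0.61 and -0.36. In normoxia WDR43 and RRP1B lay only just past that value. Centring each array on its median moved the normoxic median of all members from -0.04 to 0.02, and these 4 were picked without centring. How many of all genes met both limits was not counted, so these 4 are not read as a trait of the members. With the compound in normoxia 645 of the 11307 brighter genes were at least 1.5-fold lower, and 0 of the 56 members were. The difference between hypoxia and normoxia was not tested, since there was 1 array per condition.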

How the results depend on the processing

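No paired analysis was possible because each condition had 1 array, and for the same reason no array could be left out. The array titled 10 nM had the compound too, so putting it in place of the hypoxic DMSO array does not check that array. With this replacement the median of the members for 100 nmol/L in hypoxia was 0.46, and 2 members were at least 2-fold higher. The median for hypoxia against normoxia was then -0.70. Under quantile normalization the latter was -0.79, and IMP3 became the 1 member at least 2-fold higher in hypoxia. With normoxia at 100 nmol/L in place of normoxic DMSO 1 member was higher as well. At 1.5-fold, 34 members were higher with 100 nmol/L in hypoxia, 38 lower and 1 higher in hypoxia against normoxia, 4 apart on the array titled 10 nM and 24 higher on the array titled 1 nM. At 3-fold, 2 members were higher and 0 lower with 100 nmol/L, 8 were lower in hypoxia, and 0 were higher on the array titled 1 nM. Quantile normalization kept 10 of the 13 members called higher with 100 nmol/L, losing DKC1, POLR1B and WDR12 and adding UTP3, and 21 of the 23 called lower in hypoxia, losing RRP9 and WDR75. Adding 32 before log2 lost the same 3 calls with 100 nmol/L, and centring each array on its median added RIOK1. A value of a single member counted as moved when it changed by more than 0.36 on the log2 scale. Calls lost by a smaller change, such as that of DKC1 under quantile normalization (0.92), did not count. Of 840 values of single members recomputed, 36 moved, all with a replaced array, and 0 of those past 2-fold changed sign. All 56 members were brighter than the median probe set. Signal over background could not be computed from the deposited values.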
